A study of Rattus norvegicus with 99 samples.

Results

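The right ventricle (RV) of older sham-operated rats was compared with that of young ones. The comparison used 11 of the 99 whole-tissue libraries of the study, 5 from older shams and 6 from young shams, each from another animal. The older shams were the 2 animals labelled sham_pab_decomp, called Sham-RF here, which were 27 weeks old and 21 weeks past surgery, and the 3 animals labelled sham_aob_decomp, called Sham-LF here, which were 30 weeks old and 24 weeks past surgery. The young shams, Sham-H, were labelled sham, were 11 weeks old and 7 weeks past surgery, and entered without the library of animal 1. All were male F1 rats of a cross of Wistar Kyoto females with Lewis males, and all had a sham operation, with no banded vessel in either age group. They served as controls in a study of pulmonary artery or aortic banding, in which polyadenylated RNA of both ventricles and the septum (Spt) of 33 rats was sequenced. Age and time since the sham operation moved together, so they cannot be told apart. The labelled ages and times place surgery earlier in the young than in the older shams, and the text of the study gives other ages.

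The libraries were chosen by group label and age, and animal 1 was left out for its measured values. Over the 25 genes most RV-high and the 25 most LV-high in the other shams, its RV minus LV difference was -1.2 times the median of the others, that is, in the opposite direction, while the 11 animals used lay between 0.412 and 1.38. This value chose the libraries and is a description only. The tissue field of these samples gives left ventricle, but their titles and source names say right ventricle, which was followed. The description of Sham-LF replicate 1 points to a column named after the other older sham group, and its title was followed. The cardiomyocyte markers were abundant in all libraries, with a summed level of 117150 to 150470 counts scaled to an equal library total (CPM) in young and 122130 to 147250 CPM in older shams over 12 genes.

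The heart of a rat grows fast after birth and then slows to a near-steady size. In this time fibroblasts lay down the fibrillar collagen scaffold, and in the adult heart new collagen is made at a low rate. The RV works against the low pressure of the lung circulation and has a thinner wall than the left ventricle (LV), and its muscle cells oxidise fatty acids as their main fuel, with glucose as a second one.

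Library series, read from the library numbers in the labels, was not balanced between ages. All 5 older RV libraries belonged to series 2, together with 3 of the young ones, whereas 2 young libraries belonged to series 1 and 1 to series 3. Totals were 12.8 to 21.1 M (mega) counts per library. On principal component 1, which held 54.3% of the variance of log2 CPM, 4 libraries stood apart at 27.5 to 37.8, Sham-H replicates 1 and 2 and Sham-LF replicates 1 and 2, while the others lay between -33 and -0.406. These 4 also had the highest summed levels of cytosolic ribosomal protein transcripts, at 38579 to 45501 CPM. Results are therefore given also within series 2, with 5 older and 3 young libraries, and without these 4. Both use libraries of the main comparison and are not independent of it. Of these 4, series 2 holds the older ones, Sham-LF replicates 1 and 2, and none of the young ones. Within series 2 the ages are thus not balanced on principal component 1, and its part in the series 2 values was not tested.

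**Figure D1:**
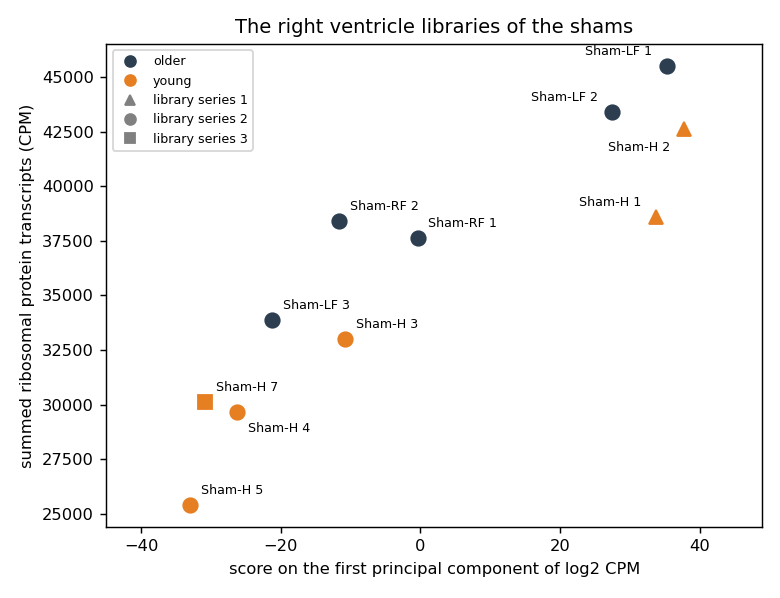
Score of each of the 11 RV libraries on principal component 1 of log2 CPM (x axis) against the summed CPM of cytosolic ribosomal protein transcripts (y axis). Dark points are older and orange points young shams, and the shape gives the library series. The 4 libraries on the right lie at 27.5 to 37.8, and both ages are among them.

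In the edgeR quasi-likelihood test of 11125 genes, 2 genes passed an adjusted p of 0.05, which is 0.0180% of those tested, and both were higher in older shams. They were Pfkfb1 and Cdh22. At an unadjusted p under 0.05 there were 620 genes higher (5.57%) and 438 lower (3.94%), together 9.51%. Each count of list members over the 11 libraries below is to be read beside these shares. In 139 genes (1.25%) the 5 older and 6 young libraries did not overlap, 77 of them higher and 62 lower in older shams. DESeq2 called 81 genes (0.728%), 56 higher and 25 lower, both genes included. A fit of 30 RV libraries of all 7 sham and banding groups, with library series as a covariate, called 270 (2.30%), 99 higher and 171 lower, also with both genes. The count of calls thus depended on the model. The p-values set a difference against the spread between animals, which in the 30-library fit includes that of banded animals.

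Pfkfb1 encodes a bifunctional kinase and phosphatase that sets the level of the most potent activator of phosphofructokinase in glycolysis. Its level was 4.33 and 4.87 CPM in the 2 Sham-RF and 6.36, 7.05 and 4.83 CPM in the 3 Sham-LF libraries. In Sham-H the lowest of 6 libraries had 1.48, the median was 1.82 and the highest 1.84 CPM. Every older library, all of series 2, thus lay above every young one of series 1, 2 and 3. The mean was 5.49 ± 1.16 CPM in older (SD, n = 5) and 1.75 ± 0.141 CPM in young shams (SD, n = 6). Pfkfb1 rose by 1.64 ± 0.16 on the log2 scale (SE, edgeR adjusted p = 0.00179), and an exact permutation test of its log2 CPM alone gave p = 0.00216, two-sided, the smallest that 462 arrangements allow. Only genes without overlap between the groups were named here, and a lack of overlap fixes this value, so it adds no support. Within series 2 the log2 difference was 1.62 ± 0.21 (SE, adjusted p = 0.0884), and without the 4 libraries that stood apart it was 1.46 (adjusted p = 0.0547). The 30-week shams differed from the young by 1.79 and the 27-week shams by 1.40 on the log2 scale.

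Cdh22 encodes a type II cadherin, a calcium-dependent adhesion molecule best known from brain and pituitary. It stood at 22.8 and 28.4 CPM in Sham-RF and at 32.4, 26.7 and 23.6 CPM in Sham-LF. The young libraries ranged from 13.1 CPM over a median of 15.3 to 17.3 CPM and did not overlap with the older ones. Cdh22 rose by 0.81 ± 0.11 on the log2 scale (SE, edgeR adjusted p = 0.0276), from 15.3 ± 1.53 CPM (SD, n = 6) to 26.8 ± 3.87 CPM (SD, n = 5). Its exact permutation p of 0.00216, two-sided, was likewise fixed by the lack of overlap. Within series 2 the difference was 0.83 on the log2 scale (adjusted p = 0.136). Leaving out any of the 11 libraries in turn kept Pfkfb1 past the threshold, with adjusted p from 0.00275 to 0.0106. Cdh22 stayed past it in 4 of the 11 runs, those without Sham-LF replicate 3, Sham-RF replicate 1 and Sham-H replicates 1 and 2, with adjusted p from 0.0166 to 0.128 over all runs.

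**Figure D2:**
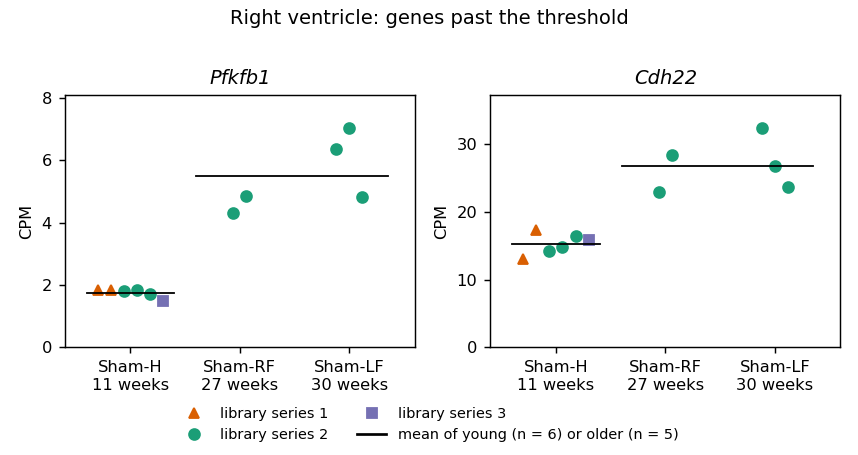
CPM of Pfkfb1 and Cdh22 in each RV library (y axes from 0) by sham group and age (x axis). Shapes and colours give the library series and lines the means of young (n = 6) and older (n = 5) shams. All older libraries lie above all young ones in both panels, at 4.33 to 7.05 against 1.48 to 1.84 CPM for Pfkfb1.

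Collagen transcripts were lower in the older RV, though none passed in the edgeR test of the 11 libraries without a covariate. In the 30-library edgeR fit with library series as a covariate, Col3a1, Col1a1, Col4a1 and Col6a2 passed (adjusted p from 0.0125 to 0.0457). Of 20 fibrillar and network collagens in the table, 16 were tested, of which 8 were lower and none higher at an unadjusted p under 0.05, beside 3.94% and 5.57% of all genes. Their median log2 difference was -0.29, against -0.01 over all genes tested, and 3 of 16 had groups that did not overlap. Summed over the list, the level was 1393 to 1882 CPM in the older and 2049 to 2853 CPM in the young libraries, so that all older libraries lay below all young ones. Within series 2, 8 were lower and 1 higher, beside 6.46% and 9.83% of all genes, with a median of -0.33. Without the 4 libraries that stood apart, 9 were lower and none higher, beside 1204 of 11242 genes in either direction.

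Col3a1, the type III collagen chain of the perimysial network, had 523, 533 and 543 CPM in Sham-LF and 679 and 693 CPM in Sham-RF. In Sham-H it ranged from 783 to 1289 CPM with a median of 1065 CPM. No older library reached a young one, and the log2 difference was -0.82 ± 0.13 (SE, edgeR adjusted p = 0.0897). Within series 2 it was -0.85 (adjusted p = 0.136). DESeq2 gave the same 11 libraries an adjusted p of 4.45e-06.

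Col1a1, a chain of the main tensile collagen, type I, had 124, 124 and 143 CPM in Sham-LF, 198 and 175 CPM in Sham-RF and 231 to 355 CPM in Sham-H. Its groups did not overlap either, with a log2 difference of -0.85 ± 0.15 (SE, edgeR adjusted p = 0.106) and -0.75 within series 2 (adjusted p = 0.228). Col6a2, a chain of the microfibrillar type VI, ranged from 155 to 199 CPM in older and from 209 to 265 CPM in young shams (log2 difference -0.41, adjusted p = 0.174). Col4a1 of the basement membrane ranged from 254 to 379 CPM in older and from 358 to 482 CPM in young shams and overlapped, with a log2 difference of -0.56 (adjusted p = 0.174). For all 4 the mean of the 27-week shams lay between those of the young and the 30-week shams.

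**Figure D3:**
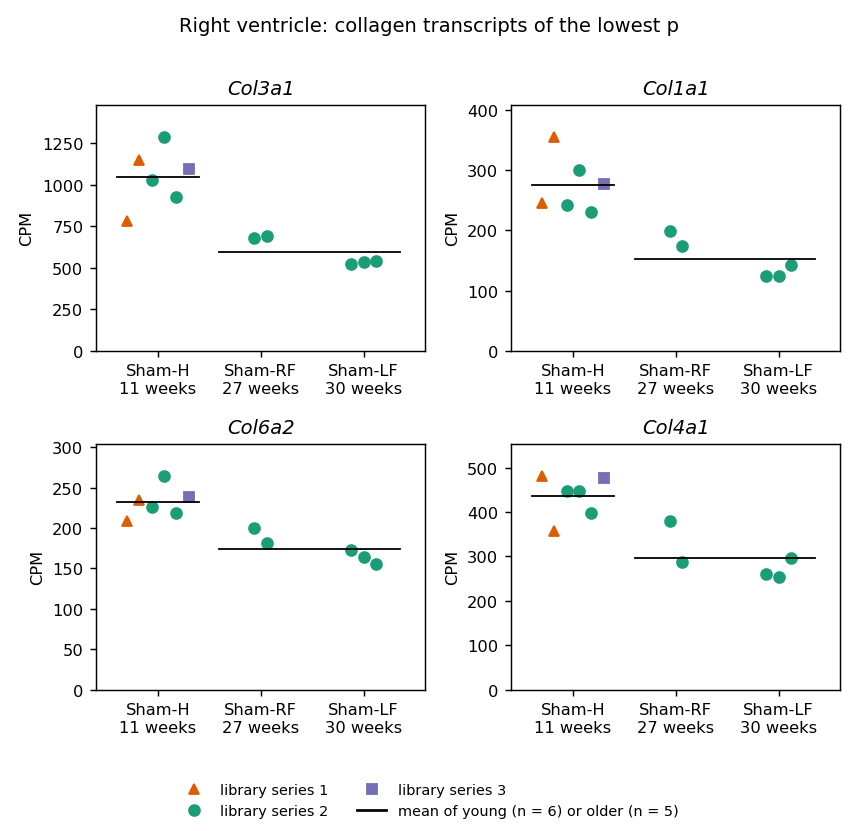
CPM of the 4 collagen transcripts with the lowest p in each RV library (y axes from 0) by sham group and age (x axis), with library series by shape and colour. Lines are the means of young (n = 6) and older (n = 5) shams. The groups do not overlap for Col3a1, Col1a1 and Col6a2.

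Among fibroblast markers the difference lay with the collagens. Of 10 fibroblast markers tested, Col1a1 and Col3a1 were lower at an unadjusted p under 0.05 and none was higher, the list median was 0.05, and its summed level ranged from 6552 to 8647 CPM in young and from 5783 to 9019 CPM in older shams. In bulk tissue, fewer cells of a type and less RNA per cell cannot be told apart. Among 23 genes of collagen processing and crosslinking tested, 1 was lower, Adamts2, which cleaves the procollagen N-terminus (log2 difference -0.30, adjusted p = 0.454), and the list median was -0.02. Of 39 matrix glycoproteins and proteoglycans, 4 were higher and 3 lower, beside 5.57% and 3.94% of all genes. Among them Cyr61, a matricellular protein induced by serum and stretch, had 224 and 103 CPM in Sham-RF, 60.6 to 68.6 CPM in Sham-LF and 25.6 to 66.4 CPM in Sham-H (log2 difference 1.34, adjusted p = 0.293). Cilp, a matrix protein of the intermediate layer of cartilage that is also made in the stressed heart, ranged from 2.81 to 5.89 CPM in older and from 4.69 to 8.52 CPM in young shams. Of 15 metalloproteinases and inhibitors, Timp1 was higher (log2 difference 0.31, adjusted p = 0.437) and 2 were lower.

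Interferon-stimulated genes also lay lower in the older RV. Of 46 tested, 18 were lower and none higher at an unadjusted p under 0.05, beside 3.94% and 5.57% of all genes, and 40 of 46 had a negative log2 difference, with a median of -0.32. None passed in the edgeR test of the 11 libraries without a covariate. In the 30-library edgeR fit with library series as a covariate, Eif2ak2 passed (adjusted p = 0.0419), but Oasl, Mx2 and Oas1b did not. Within series 2, 22 were lower and 1 higher, beside 6.46% and 9.83% of all genes, with a median of -0.28. Without the 4 libraries that stood apart 20 were lower and 1 higher, beside 1204 of 11242 genes in either direction. The summed level of the list, however, overlapped, at 1799 to 2318 CPM in older and 1993 to 3461 CPM in young shams, and its highest value was that of Sham-H replicate 1.

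The promoters of Eif2ak2 and Oas1b, among the 4 interferon-stimulated genes with the lowest p, hold the core of the interferon-stimulated response element and are shown for that reason. The core was searched as GAAA, any 2 bases and GAAA again, on both strands, overlaps counted, in the 250 bases before and the 50 after the gene start, with sequences from RefSeq on the build GRCr8, whereas the counts rest on Rnor6.0. It was found in 20 of the 33 list members tested that had an entry, and in 3.77% of 27457 promoters. The windows are chr6:21940904-21941203 on the plus strand for Eif2ak2 and chr12:41395803-41396102 on the minus strand for Oas1b. They read 5′ to 3′ on the strand of the gene, with the matches in capitals, 1 in Eif2ak2 at -16 and 2 overlapping ones in Oas1b at -59 and -53 from the start. A match is a description of the letters and not a site shown to be bound.
Eif2ak2: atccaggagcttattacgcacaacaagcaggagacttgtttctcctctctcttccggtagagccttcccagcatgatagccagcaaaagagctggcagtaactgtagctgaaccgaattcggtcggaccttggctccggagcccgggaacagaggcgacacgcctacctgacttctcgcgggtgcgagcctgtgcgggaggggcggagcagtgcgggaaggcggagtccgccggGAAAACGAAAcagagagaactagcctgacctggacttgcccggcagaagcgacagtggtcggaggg
Oas1b: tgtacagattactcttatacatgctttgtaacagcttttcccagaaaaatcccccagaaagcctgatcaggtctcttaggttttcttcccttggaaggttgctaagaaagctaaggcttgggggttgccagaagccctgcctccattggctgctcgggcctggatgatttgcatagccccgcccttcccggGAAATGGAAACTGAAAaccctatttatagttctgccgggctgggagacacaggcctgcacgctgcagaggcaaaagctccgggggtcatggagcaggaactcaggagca

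Eif2ak2, the kinase PKR that stops translation upon sensing double-stranded RNA, had 45.9, 38.8 and 55.9 CPM in Sham-LF, 52.8 CPM in Sham-RF replicate 2 and 47.1 to 74.8 CPM in Sham-H. Only Sham-H replicate 2 lay among the older libraries, and the log2 difference was -0.43 (adjusted p = 0.313). Oas1b, of the family of oligoadenylate synthetases, ranged from 11.8 to 17.5 CPM in older and from 18.5 to 38.3 CPM in young shams without overlap (log2 difference -0.63, adjusted p = 0.349), and because its copies are close in sequence, reads may be split among them. Oasl, of the same family, ranged from 3.92 to 5.22 CPM in older and from 5.69 to 12.9 CPM in young shams, again without overlap (log2 difference -0.76, adjusted p = 0.271). Mx2, an interferon-induced GTPase, ranged from 53.8 to 69.1 CPM in older and from 72.1 to 181 CPM in young shams (log2 difference -0.79, adjusted p = 0.287). For Oasl, Mx2 and Oas1b the highest young value was that of Sham-H replicate 1, which belongs to series 1. Within series 2, from which it is absent, the 4 genes differed by -0.47 to -0.71 on the log2 scale. Of 20 genes of class I antigen presentation, 2 were lower and none higher, and of 11 genes of class II none was on either side.

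The circadian clock list showed differences of both signs. The clock is a feedback loop in which the activators Arntl (BMAL1) and Npas2 or Clock drive their own repressors through E-boxes, and its outputs Dbp and Tef peak about opposite to Arntl. Of 17 genes tested, 2 were higher and 3 lower at an unadjusted p under 0.05, beside 5.57% and 3.94% of all genes. The median was -0.10, and none passed in the edgeR test of the 11 libraries without a covariate. Npas2 ranged from 2.44 to 3.54 CPM in older and from 1.90 to 2.33 CPM in young shams without overlap (log2 difference 0.50, adjusted p = 0.313). Arntl ranged from 2.83 to 4.09 against 1.96 to 2.87 CPM (0.53, adjusted p = 0.333), and Tef from 183 to 239 against 233 to 325 CPM (-0.35, adjusted p = 0.287). Ciart, a repressor of the loop, had 2.88, 3.53 and 8.44 CPM in Sham-LF and 11.0 and 10.1 CPM in Sham-RF, and in Sham-H 26.8, 22.8 and 21.2 CPM in replicates 1, 2 and 3 but 9.49, 7.35 and 8.22 CPM in replicates 4, 5 and 7. The young libraries thus formed a higher and a lower set, the lower one within the range of the older shams. The log2 difference of Ciart was -1.14 ± 0.44 (SE, adjusted p = 0.453) and -0.21 without the 4 libraries that stood apart. The clock time at which hearts were taken is not given in the sources used here, and its part in these values was not tested.

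The promoters of Ciart, Tef and Arntl are shown because they hold a match to the E-box or to the receptor element core AGGTCA. As above, a match describes letters and is not a site shown to be bound. The E-box CACGTG, its own reverse complement, was found in 3 of the 15 list members with an entry, Bhlhe40, Ciart and Tef, and in 6.65% of all promoters. The receptor element core AGGTCA was found on either strand in 2 members, Arntl (Bmal1 in RefSeq) and Nr1d2, and in 15.7% of all promoters. The windows are chr2:186112197-186112496 (minus strand) for Ciart, chr7:115206577-115206876 (plus strand) for Tef and chr1:176766078-176766377 (plus strand) for Arntl. Capitals mark E-boxes in Ciart at -93, -35 and -21 and in Tef at -198, and AGGTCA in Arntl at -15 from the start.
Ciart: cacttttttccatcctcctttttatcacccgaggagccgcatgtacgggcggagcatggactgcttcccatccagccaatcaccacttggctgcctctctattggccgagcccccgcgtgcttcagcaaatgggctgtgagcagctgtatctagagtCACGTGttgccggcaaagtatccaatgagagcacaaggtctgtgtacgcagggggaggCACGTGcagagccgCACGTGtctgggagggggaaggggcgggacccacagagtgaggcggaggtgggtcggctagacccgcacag
Tef: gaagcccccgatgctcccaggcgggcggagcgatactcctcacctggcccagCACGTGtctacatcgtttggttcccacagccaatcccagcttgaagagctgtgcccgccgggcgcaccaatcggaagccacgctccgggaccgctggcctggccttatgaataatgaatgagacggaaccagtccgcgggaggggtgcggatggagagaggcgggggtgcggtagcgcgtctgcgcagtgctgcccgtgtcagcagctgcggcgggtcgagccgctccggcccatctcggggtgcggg
Arntl: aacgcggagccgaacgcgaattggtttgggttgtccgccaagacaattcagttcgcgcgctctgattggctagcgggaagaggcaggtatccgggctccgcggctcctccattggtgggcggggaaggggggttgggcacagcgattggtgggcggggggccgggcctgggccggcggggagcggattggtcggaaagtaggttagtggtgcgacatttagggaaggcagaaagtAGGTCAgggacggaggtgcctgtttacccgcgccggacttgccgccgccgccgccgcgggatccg

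In metabolism Pfkfb1 was the only list member past the threshold in the edgeR test of the 11 libraries. Of 30 genes of glucose uptake and glycolysis tested, 1 was higher and 3 lower at an unadjusted p under 0.05, beside 5.57% and 3.94% of all genes. Their median was -0.08. Hk1, a hexokinase, ranged from 136 to 189 CPM in older and from 186 to 218 CPM in young shams (log2 difference -0.36, adjusted p = 0.254). Among 49 genes of fatty acid uptake and oxidation, 1 was higher and 2 lower, with a median of -0.11. Ppard, a nuclear receptor that drives fatty acid oxidation genes, ranged from 49.9 CPM over a median of 62.8 CPM in older and from 76.7 to 107 CPM in young shams, without overlap (-0.45, adjusted p = 0.282). Klf15, a glucocorticoid-responsive regulator of cardiac lipid metabolism, ranged from 65.2 to 91.2 against 98.7 to 130 CPM, also without overlap (-0.40, adjusted p = 0.254). Of 23 genes of steroid and thyroid hormone response, 1 was higher and 2 lower, and Fkbp5, a glucocorticoid-induced chaperone, had a log2 difference of -0.49 (adjusted p = 0.514).

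Of 78 transcripts of ribosomal proteins tested, 26 were higher and none lower at an unadjusted p under 0.05, beside 5.57% and 3.94% of all genes. None passed the adjusted threshold in the edgeR test of the 11 libraries without a covariate, where 75 had a positive log2 difference and the median was 0.27. In the 30-library edgeR fit with library series as a covariate, Rps12, Rpl27a and Rpl35 passed (adjusted p from 0.0365 to 0.0489), but Rps25 did not (0.0652). The summed level of all 81 in the data was 33866 to 45501 CPM in older and 25422 to 42615 CPM in young shams. Within series 2, where the summed levels of the 3 young libraries were 25422 to 32999 CPM, 71 were higher, beside 9.83% of all genes, and the median was 0.45. Without the 4 libraries that stood apart 64 were higher, beside 1204 of 11242 genes in either direction. In LV of the same animals 2 were higher and none lower, beside 1006 of 11165 genes in either direction at an unadjusted p under 0.05. In Spt none was on either side. The list medians were 0.14 in LV and -0.06 in Spt, against -0.01 and -0.03 over all genes. With principal component 1 of the residuals as a covariate, which was estimated on the same libraries, 69 were higher and none lower, with a median of 0.28. Among 74 nuclear-encoded respiratory chain genes none was on either side in all 11 libraries, with a median of 0.10. Within series 2, 29 of them were higher and 1 lower, beside 9.83% and 6.46% of all genes. Without the 4 libraries that stood apart 14 were higher and none lower, beside 1204 of 11242 genes in either direction. None was higher in LV or Spt, and 3 were lower in LV, where 1006 of 11165 genes lay on either side. Haemoglobin and other erythroid transcripts lay higher in older shams, with 2 of 6 higher, beside 5.57% of all genes, and a median of 0.52. Hbb reached 2196 CPM in older and 1796 CPM in young shams, with an older median of 1496 CPM.

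Of 55 cell cycle genes, 4 were lower and none higher at an unadjusted p under 0.05, beside 3.94% and 5.57% of all genes, 47 had a negative log2 difference, and the median was -0.20. Mcm5, a subunit of the replicative helicase, ranged from 3.11 to 5.16 CPM in older and from 4.86 to 8.46 CPM in young shams (log2 difference -0.62, adjusted p = 0.319). Foxm1, a driver of mitotic genes, ranged from 1.12 to 1.91 against 1.80 to 2.88 CPM (-0.58, adjusted p = 0.364). Within series 2, 2 of the list were lower, beside 6.46% of all genes, with a median of -0.06, against 0.00 over all genes.

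Growth factor and imprinted genes held members of both signs. Igf1, the main growth factor downstream of growth hormone, ranged from 50.8 to 70.2 CPM in older and from 26.7 to 56.4 CPM in young shams (log2 difference 0.58, adjusted p = 0.313). Within series 2 its log2 difference was 0.85 (edgeR adjusted p = 0.154), and without the 4 libraries that stood apart it was 0.76 (edgeR adjusted p = 0.147). Of 17 genes of the IGF and growth hormone axis, 2 were higher and 1 lower, beside 5.57% and 3.94% of all genes. Of 16 imprinted growth genes, 5 were higher and 1 lower, beside the same shares. The higher ones held H19 (0.61, adjusted p = 0.271), Peg3 (0.27), Impact (0.43) and Cdkn1c (0.46), and the lower one was Mest (-0.83). Impact, an inhibitor of translational stress signalling, ranged from 35.0 to 53.1 CPM in older and from 24.7 to 34.4 CPM in young shams without overlap.

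Of 32 immediate early genes, which respond within minutes to stretch, stress and handling of tissue, 4 were higher and none lower, beside 5.57% and 3.94% of all genes, with a median of 0.20. Within series 2, 10 were higher, beside 9.83% of all genes. Without the 4 libraries that stood apart 12 were higher, beside 1204 of 11242 genes in either direction. Egr1 had 62.9 and 38.4 CPM in Sham-RF, 8.87, 7.61 and 20.8 CPM in Sham-LF and 3.61 to 18.9 CPM in Sham-H. Both 27-week libraries thus lay above all others, and the log2 difference of Egr1 from the young was 2.40 at 27 weeks and 0.36 at 30 weeks. The adjusted p of the older shams together was 0.443 with edgeR. Ier2 and Junb, also of this list, had log2 differences of 0.60 and 0.59.

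Among genes of electrical coupling, Gja1, the gap junction protein connexin 43 of the working myocardium, ranged from 418 to 579 CPM in older and from 320 to 401 CPM in young shams without overlap (log2 difference 0.43 ± 0.10, SE, adjusted p = 0.244). Gjc1, connexin 45, ranged from 11.8 to 13.9 against 13.4 to 18.1 CPM (-0.28, adjusted p = 0.429). Hcn2, a pacemaker channel, ranged from 38.5 to 112 against 81.4 to 164 CPM (-0.74, adjusted p = 0.434). Of 41 genes of calcium handling and ion channels, 3 were higher and 6 lower, beside 5.57% and 3.94% of all genes, with a median of -0.09.

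Genes followed as markers of cardiac load did not pass the test. Nppa, atrial natriuretic peptide, was at 1204 CPM in Sham-LF replicate 3 and 1894 CPM in Sham-H replicate 7, and between 47.3 and 447 CPM in the other 9 libraries. Its log2 difference of -0.69 ± 1.07 (SE, adjusted p = 0.85) became 0.63 without Sham-H replicate 7 and 1.75 within series 2. The summed level of 8 atrial markers, Nppa included, reached 2457 CPM in older and 3180 CPM in young shams from minima of 286 and 322 CPM. The part of atrial tissue in these libraries was not tested. Nppb, B-type natriuretic peptide, differed by -0.88 (adjusted p = 0.534) and by 0.08 within series 2. Myh7, the slow myosin heavy chain, ranged from 3874 to 4698 CPM in older and from 2618 to 10240 CPM in young shams, where Sham-H replicate 1 was highest. Its log2 difference was -0.33 (adjusted p = 0.728) and 0.35 within series 2. Myh6, the fast myosin heavy chain and the main one of the rat ventricle, differed by -0.14 (adjusted p = 0.665), Acta1, skeletal actin, by -0.23 (adjusted p = 0.788) and Ankrd23, a titin-linked ankyrin repeat protein, by 0.30 (adjusted p = 0.686). The groups overlapped in all 6. Of 18 load-responsive genes, 2 were higher and 1 lower at an unadjusted p under 0.05, beside 5.57% and 3.94% of all genes. Within series 2, 7 were higher and none lower, beside 9.83% and 6.46% of all genes. Without the 4 libraries that stood apart 4 were higher and none lower, beside 1204 of 11242 genes in either direction.

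Of 39 sarcomere genes 2 were higher and 3 lower, beside 5.57% and 3.94% of all genes, with a median of 0.05. Within series 2, 8 were higher and 1 lower, beside 9.83% and 6.46% of all genes, with a median of 0.12. Without the 4 libraries that stood apart 4 were higher and none lower, beside 1204 of 11242 genes in either direction. Of 34 heat shock chaperones 2 were higher, of 37 angiogenic and vascular genes 1 was higher and 2 lower, and of 9 calcineurin targets none was on either side. Of 36 genes of TGF-beta, BMP and Wnt signalling 5 were higher, and of 33 chamber-patterning and cardiac transcription factors 4. Both counts stand beside 5.57% of all genes, and the medians were 0.02 and -0.04. Of 23 p53 targets and senescence genes 2 were lower, among them Sesn1, which restrains mTOR upon stress (log2 difference -0.36, adjusted p = 0.254). In the edgeR test of the 11 libraries, none of the 48 lists but glycolysis, with Pfkfb1, held a gene past the adjusted threshold.

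Of 27 complement and acute phase genes, 6 were higher and none lower, beside 5.57% and 3.94% of all genes, with a median of 0.13. C6, a component of the terminal complement complex, ranged from 8.17 to 10.2 CPM in older and from 3.05 to 7.31 CPM in young shams without overlap (log2 difference 0.76, adjusted p = 0.254). Hp, haptoglobin, ranged from 1.05 to 2.70 against 0.379 to 1.31 CPM (1.39, adjusted p = 0.254). Of T cell markers 4 of 7 were higher, beside 5.57% of all genes, among them Cd8a and Cd2, with Cd3e and Cd3g near 1 CPM. The summed level of all 11 T cell markers in the data was 26.2 to 36.3 CPM in older and 18.4 to 29.8 CPM in young shams. Of 6 mast cell markers 1 was higher, Tpsb2, a tryptase (0.57, adjusted p = 0.254), and the summed level of all 9 in the data was 42.9 to 51.9 CPM against 33.7 to 42.7 CPM. Of 11 macrophage markers 2 were higher, and none without the 4 libraries that stood apart. Of 4 endocardial markers 2 were higher, beside 5.57% of all genes. Among them Cytl1, a secreted cytokine-like protein, was at 112 to 146 CPM in older and 72.6 to 104 CPM in young shams (0.55, adjusted p = 0.249). Of 11 endothelial markers Vwf, the clotting factor carrier, was higher (0.58, adjusted p = 0.287). The marker lists of 11 other cell types held at most 1 member on either side, apart from 2 lower in cardiomyocytes, 2 higher in erythroid cells, 2 higher and 1 lower in skeletal muscle and 3 of 4 higher in cartilage and valve.

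**Figure D4:**
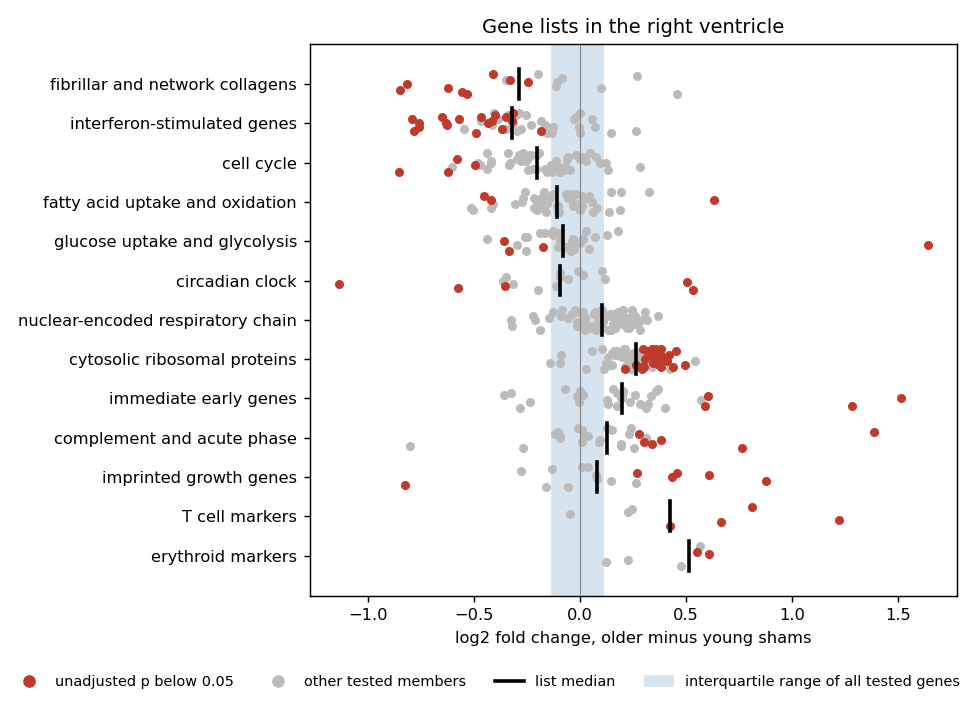
Log2 fold change of older minus young RV (x axis) for each tested member of 13 gene lists (y axis). Red points have an unadjusted p below 0.05, black bars are list medians, and the band is the interquartile range of all tested genes. Collagens and interferon-stimulated genes have medians of -0.29 and -0.32, and ribosomal proteins 0.27.

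The following genes were chosen after their values were seen, for their low p. Ddit4, a stress-induced inhibitor of the growth kinase mTOR, ranged from 91.9 to 114 CPM in older and from 126 to 216 CPM in young shams (log2 difference -0.82 ± 0.13, SE, edgeR adjusted p = 0.0897). Pla2g2a, a secreted phospholipase, had 104, 110 and 61.2 CPM in Sham-LF and 86.9 and 57.3 CPM in Sham-RF against 31.8 to 50.0 CPM in Sham-H (1.12 ± 0.18, SE, adjusted p = 0.0897). Misp, an actin-binding protein of the mitotic spindle, and Lrp11 of the LDL receptor family reached the same adjusted p, at 0.95 and 0.43. Ccl7 and Ccl2, chemokines that attract monocytes, differed by 1.11 and 0.96 in all libraries and by 1.42 and 1.39 within series 2, where each had an adjusted p of 0.0884, the lowest there. Crabp2, which carries retinoic acid to its receptor, differed by 1.10, Ass1 of arginine synthesis by 0.78, Kcnn4, a calcium-activated potassium channel, by 0.79, Tnfrsf12a, the TWEAK receptor, by 0.80, Pik3ip1, an inhibitor of PI3-kinase, by -0.33 and Atp6v1g2, a proton pump subunit, by -1.29. Apart from Tnfrsf12a, the groups of these 12 genes did not overlap.

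Within series 2, edgeR called 0 of 11216 genes, with 1102 higher (9.83%) and 725 lower (6.46%) at an unadjusted p under 0.05, and DESeq2 called 164, of which 128 were higher and 36 lower. Pfkfb1, Ccl7 and Ccl2 had the lowest adjusted p.

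The 30-week and 27-week shams were compared with each other, 3 against 2. No gene of 11453 passed with edgeR, 338 had an unadjusted p under 0.05 (2.95%), and DESeq2 called 1, Arc, an immediate early gene that was lower at 30 weeks (log2 difference -1.86, DESeq2 adjusted p = 0.047). The log2 difference of Pfkfb1 between both older groups was 0.40, that of Col3a1 -0.36 and that of Col1a1 -0.52, each with an edgeR adjusted p of 0.968. The lowest p belonged to Slc27a2, a fatty acid transporter (-2.08), followed by Arc, Btg2 and Apold1 (-1.78), which were named after their values were seen.

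LV and Spt of the same 11 animals were used to ask whether the age difference was that of the RV. The interaction of age with chamber, with each animal as a block, gave 0 of 11345 genes for RV minus LV with edgeR and with DESeq2, with 10.2% of genes at an unadjusted p under 0.05 in edgeR and 813 genes in DESeq2. For RV minus Spt it gave 0 of 11318 with both, with 180 (1.59%) and 129 genes at an unadjusted p under 0.05. No gene was therefore shown to differ with age in the RV in another way than in LV or Spt. In LV 4 genes passed higher and 3 lower, Cdh22 (0.74, adjusted p = 0.0486), Ddit4, Atp6v1g2, Klf15 and Camk2b among them, and in Spt Ass1 passed (0.84, adjusted p = 0.0348). The 3 chambers come from the same animals, and in LV and RV from the same library series. The older Spt libraries all belonged to series 3 and the young ones to series 2 or 3. Library series therefore does not cancel in the RV minus Spt interaction, and its part there was not tested.

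Pfkfb1 differed by 0.97 in LV (adjusted p = 0.0863) and by 1.27 in Spt (adjusted p = 0.29), and its RV minus LV interaction was 0.65 ± 0.21 (SE, adjusted p = 0.425). Col3a1 differed by -0.79 in LV and -0.97 in Spt, beside -0.82 in RV, and Col1a1 by -0.91 and -0.82, beside -0.85. Over the collagen list, 6 were lower and 1 higher in LV and 8 lower and 1 higher in Spt. Of the interferon-stimulated genes, 13 were lower in each, with 1 higher in LV and 2 in Spt. In LV these counts stand beside 1006 of 11165 genes in either direction at an unadjusted p under 0.05. The collagen medians were -0.26 in LV and -0.29 in Spt, and those of the interferon-stimulated genes -0.19 and -0.22. Over all genes the medians were -0.01 in LV and -0.03 in Spt. Arntl differed by 0.49 in LV and 0.89 in Spt, and Ciart by -1.45 and -1.13. Hp, with a log2 difference of 1.39 in RV and -0.62 in LV, had an interaction of 1.99 ± 0.43 (SE, adjusted p = 0.327), and C6 differed by 0.76 in RV, 0.74 in LV and 0.07 in Spt. The lowest adjusted p of any interaction was 0.327 against LV and 1 against Spt. Several genes shared the value against LV, among them Hp, Cybb, a subunit of the phagocyte oxidase (-1.10), and Eif4ebp3, a translation repressor (0.71). Of all genes Eif4ebp3 had the lowest unadjusted p there.

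**Figure D5:**
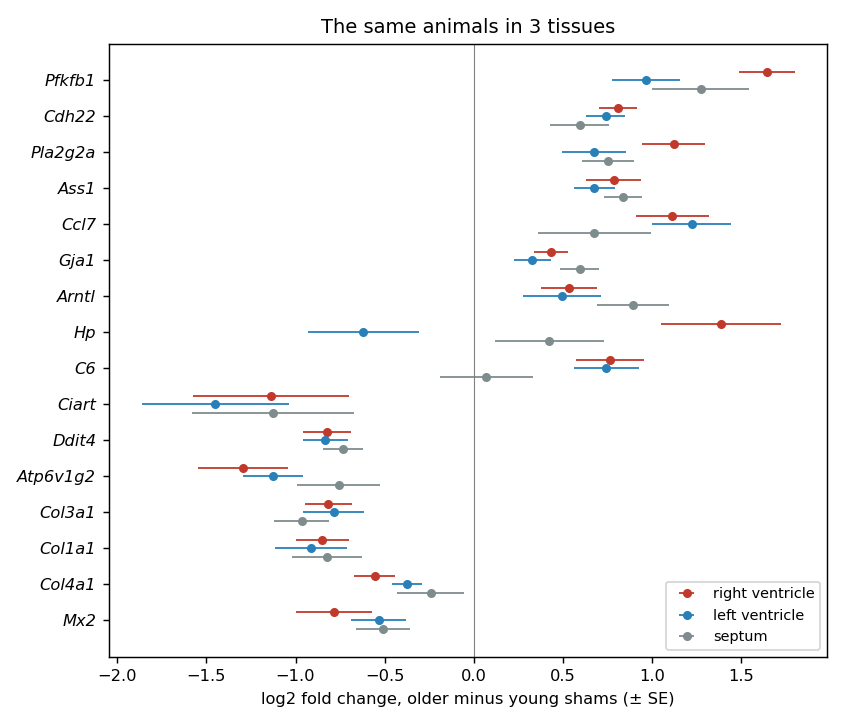
Log2 fold change of older minus young shams with its SE (x axis) for 16 genes (y axis) in right ventricle, left ventricle and septum of the same 11 animals. The values of Col3a1 lie between -0.97 and -0.79 in all 3, while Hp is at 1.39 in the right and -0.62 in the left ventricle.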

How the data were processed

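RNA of RV, LV and Spt of male F1 rats was sequenced as polyadenylated single-end libraries. According to the study's methods and the submitters' processing notes, the authors used Trim Galore for trimming and STAR for alignment to Rnor6.0 (UCSC annotation), counted them per gene with featureCounts and normalized with DESeq2. Whether counting used the strand is not given in the sources used here. The deposited counts are whole numbers per gene and library, not normalized, and all tests used them. The deposited normalized counts, a linear signal, and the deposited FPKM values were not used. The authors' own comparisons were not used.

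The table holds 17337 genes, of which 3183 were at 0 in the 11 RV libraries. Groups came from the labels. The members, gene lists and tests were chosen with earlier results of these data known, so that no list is independent evidence. Genes were tested with edgeR 4.0.16 in R 4.3.3 (quasi-likelihood F test, TMM, filterByExpr with a minimum count of 10, no covariate, Benjamini-Hochberg adjustment over all genes tested, threshold 0.05). TMM factors were 0.924 to 1.07, and the common dispersion gave a biological coefficient of variation of 20.2%. Alternatives were DESeq2 1.42.0, limma-voom (limma 3.58.1), other scalings, filters, samples and covariates, and leaving out each library. The interactions with LV and Spt had each animal as a block. Fits were tested on simulated data. CPM are TMM-scaled counts per common library size. Positive differences mean higher in older shams. The rule for named genes took up to 12 rises and 12 falls past the threshold without overlap, with at least 1 CPM and the same sign within series 2, up to 4 members with the lowest p of each of 48 lists, and 7 cardiac genes always. The text gives only some of the list members, and 1 gene is not reported here. Lists are described by counts at an unadjusted p under 0.05 and by their median, with no test. No pair of libraries agreed within counting noise, the lowest chi-square per gene being 5.63. Replicate numbers were not taken to pair the samples, as given under the alternatives. The promoters are those of RefSeq.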

Additional observations from a re-analysis of the deposited data

Results flagged for a closer look

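In 13 of 154 groups of libraries examined, each the young or the older RV libraries for 1 named gene, the highest or lowest library lay apart from the others by Dixon's criterion, and chance alone flags about 1 in 20 groups. Of the young libraries, Sham-H replicate 7 was lowest for Pfkfb1 (1.482 CPM, nearest 1.714) and highest for Nppa (1894 CPM, nearest 447.3). Sham-H replicate 1 was highest for Ankrd23 (35.75 CPM), Oasl (12.9 CPM) and Oas1b (38.29 CPM). Sham-H replicate 2 was highest for Cfd (24.23 CPM), Cd8a (2.965 CPM) and Ccl7 (3.092 CPM), and Sham-H replicate 4 for H19 (98.83 CPM). Of the older libraries, Sham-LF replicate 3 was highest for Nppa (1204 CPM, nearest 96.47) and Sham-LF replicate 2 for S100a9 (14.42 CPM, nearest 4.044). Sham-RF replicate 1 was highest for Cyr61 (223.7 CPM) and Impact (53.15 CPM).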

How the results depend on the processing

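The count of 2 genes in RV was also 2 with limma-voom, RLE factors, library totals alone, no filter and a stricter filter. With library series as a covariate it was also 2, of which Pfkfb1 was shared, with Ccl2 (adjusted p = 0.0489) in place of Cdh22 (0.132). It was 81 with DESeq2, 10 in the fit of all groups without and 270 with library series, 6 with animal 1 and 9 with its library labelled LV in place of it, 0 for 27-week and 1 for 30-week shams alone, and 1 to 6 when each library was left out (1 without Sham-LF replicate 1 or 2 or Sham-H replicate 3, 4, 5 or 7, 3 without Sham-H replicate 1, 4 without Sham-LF replicate 3 and 6 without Sham-H replicate 2). Of alternatives added after seeing the data, leaving out the 4 libraries that stood apart left 0 genes, with 1204 at an unadjusted p under 0.05, and principal component 1 of the residuals as a covariate, which was estimated on the same data, gave 543. With the replicate number as a block 0 genes were called, with 1460 at an unadjusted p under 0.05. Of 7 pairs of same-numbered libraries 5 had a correlation over 0.1 (range -0.222 to 0.584), and so few pairs cannot decide whether the numbers pair the samples. Each library came from another animal, and the numbers were not taken as pairing. Within series 2, DESeq2 gave 164 genes in place of 0, and between 30 and 27 weeks 1 in place of 0. The other alternatives of these comparisons and all of both interactions gave 0.

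Pfkfb1 passed in 24 of 27 alternatives and Cdh22 in 15 of 27, with log2 differences of 1.405 to 1.789 and 0.7107 to 0.9056. Signs turned in genes that did not pass the edgeR test of the 11 libraries, of which Fkbp5 passed with DESeq2 within series 2 (adjusted p = 0.000952). Library series as a covariate gave 0.3402 for Myh7, 1.759 for Nppa, 0.06639 for Nppb and 0.1673 for Acta1, and in the fit of all groups -0.2219 for Ankrd23. Without the 4 libraries Myh7 was at 0.024 and Acta1 at 0.1181. With each library left out, Nppa ranged from -2.806 to 0.6325 (without Sham-H replicate 7) and Acta1 from -0.357 to 0.04643 (without Sham-H replicate 1). Fkbp5 was at 0.03939 with the replicate block. The causes were not tested. At totals of 12.8 to 21.1 M counts, values near 1 CPM rest on few reads and are the least precise.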
